A study of Mus musculus with 34 samples.

Results

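The genes described here encode the MHC class I antigen presentation pathway in macrophages of the mouse colon: the heavy chains H2-Q7, H2-Q9, H2-T22 and H2-T9, their shared light chain B2m, the peptide transporter subunit Tap1, the immunoproteasome subunits Psmb8 and Psmb9, and Nlrc5, a transactivator of class I genes. These 9 genes were taken by name, from names chosen with earlier results of these data known, and all 9 were listed and tested in each of the 3 deposited tables, out of 9851 gene names listed in any of them. H2-Q7 and H2-Q9 held equal values in 6 of 6, 18 of 18 and 9 of 10 libraries of the 3 tables, with a largest difference of 0.158%. H2-T22 and H2-T9 were equal in 5 of 6, 18 of 18 and 0 of 10 libraries, with a largest difference of 4.40%. How reads fitting several genes were assigned is not given in the sources used here, so the gene origin of each pair is uncertain. Values are given once per pair, under H2-Q7 and under H2-T22, which leaves 7 distinct measurements, and counts of members out of 9 hold both genes of each pair.

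MHC class I molecules show peptides made inside a cell to CD8+ T cells and to natural killer cells. Proteasomes cut proteins into peptides, the Tap1 and Tap2 transporter carries the peptides into the endoplasmic reticulum, and a loading complex fits them onto a heavy chain held by B2m. Interferons raise transcription of these genes in many cell types through IRF1 and NLRC5, and under interferon Psmb8, Psmb9 and Psmb10 take the places of the constitutive catalytic subunits Psmb5, Psmb6 and Psmb7. In macrophages, signalling of interleukin 10 through its receptor restrains inflammatory gene expression.

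All libraries came from C57BL/6 mice, from macrophages of the colonic lamina propria sorted as CD45+ CD11b+ CD11cint CD64+ Ly6c- CD103- cells, and the series title names macrophages that lack IL-10Rα, produce IL-23 and act on the epithelium through IL-22. The first table holds 3 CXhet and 3 IL10R libraries of untreated mice aged 6 to 7 weeks. The rescue table, from mice of the same age, holds untreated CX (2 libraries), IL10R (5) and IL10R_P19 (4), and, with antibiotics given in the drinking water, IL10R_abx (4) and IL10R_littermate_abx (3). The neutrophil table holds bone marrow chimeras at 4 weeks of chimerism: wt (4 libraries), ko_igg (3) and ko_ly6g (3). The treatment label gives an antibody to Ly6G for all 10 of these libraries, wt and ko_igg included, whereas the titles separate igg from ly6g, and the titles were followed. P19 is the usual name of an IL-23 subunit, but the labels do not state the alleles behind CX, CXhet, 5C5 (in the titles of IL10R, IL10R_P19 and IL10R_abx of the rescue table) or P19, the Cre driver of the deletion, the genotype of the littermates, or the host and donor cells of the chimeras. They also do not say that the libraries came from separate animals, so p-values measure the spread between libraries, which may be technical. In such bulk samples fewer cells of a type and less RNA per cell cannot be told apart.

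Il10ra, the gene of the receptor chain named in the series title, was read as a check of the labels. Its values in CXhet 1, 2 and 3 of the first table were 689, 501 and 371, and in IL10R 1, 2 and 3 they were 9.26, 361 and 65.9, so the library labelled IL10R 2 lay just under the CXhet range, and the difference was not called (log2 change -2.99, adjusted p = 0.138). In the rescue table Il10ra was 248 and 284 in CX, 138 to 191 in the littermates and 1.7 to 31.2 in the 13 libraries with IL10R in the title but not littermate, and in the chimeras it was 247 to 827 in wt, 77.9 to 111 in ko_igg and 32.2 to 65.1 in ko_ly6g. The libraries ko_igg 18 and ko_ly6g 5 stood apart from the other 8 of their table in B2m, and were picked for that after the data were seen. In both, 39 of the 6594 genes tested were more than 2-fold below the lowest of those 8 libraries. Among them were 7 ribosomal protein genes and, because of the way the libraries were picked, B2m. No other pair of libraries was counted in this way, so whether 39 genes is many is not known. Library depth ran from 747046 to 4525047 recovered reads in named genes. Of 14 macrophage markers 12 were listed, and of 16 T and NK cell markers 1 (Cd4) in the first and rescue tables and 3 (Cd4, Lck and Gzmb) in the neutrophil table, at up to 0.0204% of summed values.

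The transporter, proteasome and heavy chain genes lie close together on mouse chromosome 17, within the MHC, and promoters of a few members are shown because the data bear on the transcript levels of these genes. In the GENCODE annotation of GRCm38, a later build than the mm9 named in the submitters' processing notes, Tap1 lies at chr17:34187553-34197225 (+), Psmb9 at chr17:34181987-34187764 (-), Psmb8 at chr17:34197721-34201454 (+), H2-Q7 at chr17:35439155-35443773 (+) and H2-T22 at chr17:36037128-36042747 (-). B2m lies on another chromosome, at chr2:122147686-122153083 (+), and Nlrc5 at chr8:94434356-94527272 (+). RefSeq promoters of GRCm38.p6 matched 6 of the 9 members by symbol: B2m, H2-Q7, H2-T22, Psmb8, Psmb9 and Tap1. By RefSeq, Tap1 and Psmb9 are read from opposite strands with start sites 226 bases apart. Their windows of 300 bases (250 before the start site and 50 after it) thus share 275 bases. In the GENCODE coordinates above these genes overlap. The RefSeq windows of Psmb8 and Psmb9 lie inside the GENCODE genes, so matches there depend on the start site used. The 250 bases before the start site are printed for the transporter, a heavy chain and the light chain, with matches to the Y box CCAAT (or ATTGG, the same motif on the other strand) and to the interferon-stimulated response element GAAANNGAA in capitals.
Tap1 (chr17:34187306-34187555, +): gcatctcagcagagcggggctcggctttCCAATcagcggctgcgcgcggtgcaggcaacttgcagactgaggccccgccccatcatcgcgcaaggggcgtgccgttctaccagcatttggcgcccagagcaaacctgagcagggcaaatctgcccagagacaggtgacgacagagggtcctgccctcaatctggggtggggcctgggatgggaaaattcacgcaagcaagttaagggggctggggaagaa
H2-Q7 (chr17:35438905-35439154, +): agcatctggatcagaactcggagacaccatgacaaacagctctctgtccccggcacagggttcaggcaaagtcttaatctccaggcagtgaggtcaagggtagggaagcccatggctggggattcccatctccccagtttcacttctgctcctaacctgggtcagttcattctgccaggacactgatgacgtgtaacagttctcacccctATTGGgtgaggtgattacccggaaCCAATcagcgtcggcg
B2m (chr2:122147437-122147686, +): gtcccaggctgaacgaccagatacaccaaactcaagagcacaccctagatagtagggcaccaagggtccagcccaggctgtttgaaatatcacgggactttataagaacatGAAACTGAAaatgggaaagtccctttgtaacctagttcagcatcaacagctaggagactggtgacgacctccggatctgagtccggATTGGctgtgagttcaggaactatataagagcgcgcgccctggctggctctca
Over both strands of the 300-base windows, the Y box was found in 5 of the 6 member promoters, not in Psmb8, and in 37.4% of all 32851 promoters. The Tap1 and Psmb9 windows hold 1 match each, and it is the same site read from opposite strands, counted in both. The match lay 222 bases before the start site in Tap1, 53 in B2m, and 40 and 16 in H2-Q7. The interferon-stimulated response element was found in B2m, 139 bases before the start site, and in H2-T22, and in 8.56% of all promoters, and the gamma-activated site TTCNNNGAA in Psmb8 alone of the 6, and in 8.30% of all promoters. These are matches of letters, not measured binding sites, and each motif was searched in 1 spelling only. A promoter without a match, such as that of H2-Q7 for the interferon-stimulated response element, may hold another spelling of it.

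In untreated mice of the first table, class I genes stood higher in IL10R than in CXhet macrophages. All values are deposited normalised read counts, that is, the reads of a gene over a factor set for its library, with no correction for gene length, so levels are compared between libraries of a table and not between genes. Of the 9 members, 8 were called higher (6 of the 7 measurements; limma on log2 values, Benjamini-Hochberg adjusted p under 0.05), against 4.57% of the 6766 genes tested (309 genes higher and 279 lower). The median log2 change of the 7 measurements was 2.08, against 0.00 over all genes tested, and every IL10R library lay above every CXhet library for all 7, as it did for 16.7% of all genes tested. The 8 calls were kept without any single library, the library labelled IL10R 2 included.

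Among the heavy chains, H2-Q7, a non-classical class I chain, was 229, 142 and 89.0 in CXhet 1, 2 and 3 and 953, 1449 and 888 in IL10R 1, 2 and 3. Every IL10R library was several-fold above the highest CXhet library, and the log2 change was 2.90 ± 0.34 (SE, n = 3 and 3, adjusted p = 0.00204). H2-T22, another non-classical chain, was 169, 211 and 189 in CXhet and 494.6, 725 and 374 in IL10R, a log2 change of 1.43 ± 0.25 (adjusted p = 0.0103). B2m, the light chain that every class I heavy chain needs to reach the cell surface, was 4143, 5105 and 2311 in CXhet and 6903, 20424 and 7769 in IL10R. The groups did not overlap, but the library labelled IL10R 2 was far above the other 2, and B2m was not called (log2 change 1.49 ± 0.45, 95% interval 0.46 to 2.53, adjusted p = 0.0768). Without IL10R 2 its log2 change was 1.00 (adjusted p = 0.135).

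Tap1, which forms the peptide transporter with Tap2, was 356, 239.5 and 174 in CXhet and 1375, 1631 and 1233 in IL10R. The lowest IL10R library was above the highest CXhet library by more than the spread within either group, and the log2 change was 2.51 ± 0.27 (95% interval 1.89 to 3.12, adjusted p = 0.00135). Psmb8, a catalytic subunit of the immunoproteasome, was 1137, 765 and 641 in CXhet and 2494, 3706 and 2445 in IL10R, with a log2 change of 1.78 ± 0.28 (adjusted p = 0.00708). Psmb9, encoded beside Tap1, was 383, 189 and 200.2 in CXhet and 894, 1421 and 866 in IL10R, with a log2 change of 2.08 ± 0.31 (adjusted p = 0.00597). For each of these genes the order of the IL10R libraries was the same, with IL10R 2 highest and IL10R 3 lowest. Nlrc5, which acts on the promoters of class I genes, was 83.8, 62.4 and 38.9 in CXhet and 288, 281 and 211 in IL10R, and rose by a log2 change of 2.10 ± 0.29 (adjusted p = 0.00402).

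**Figure D1:**
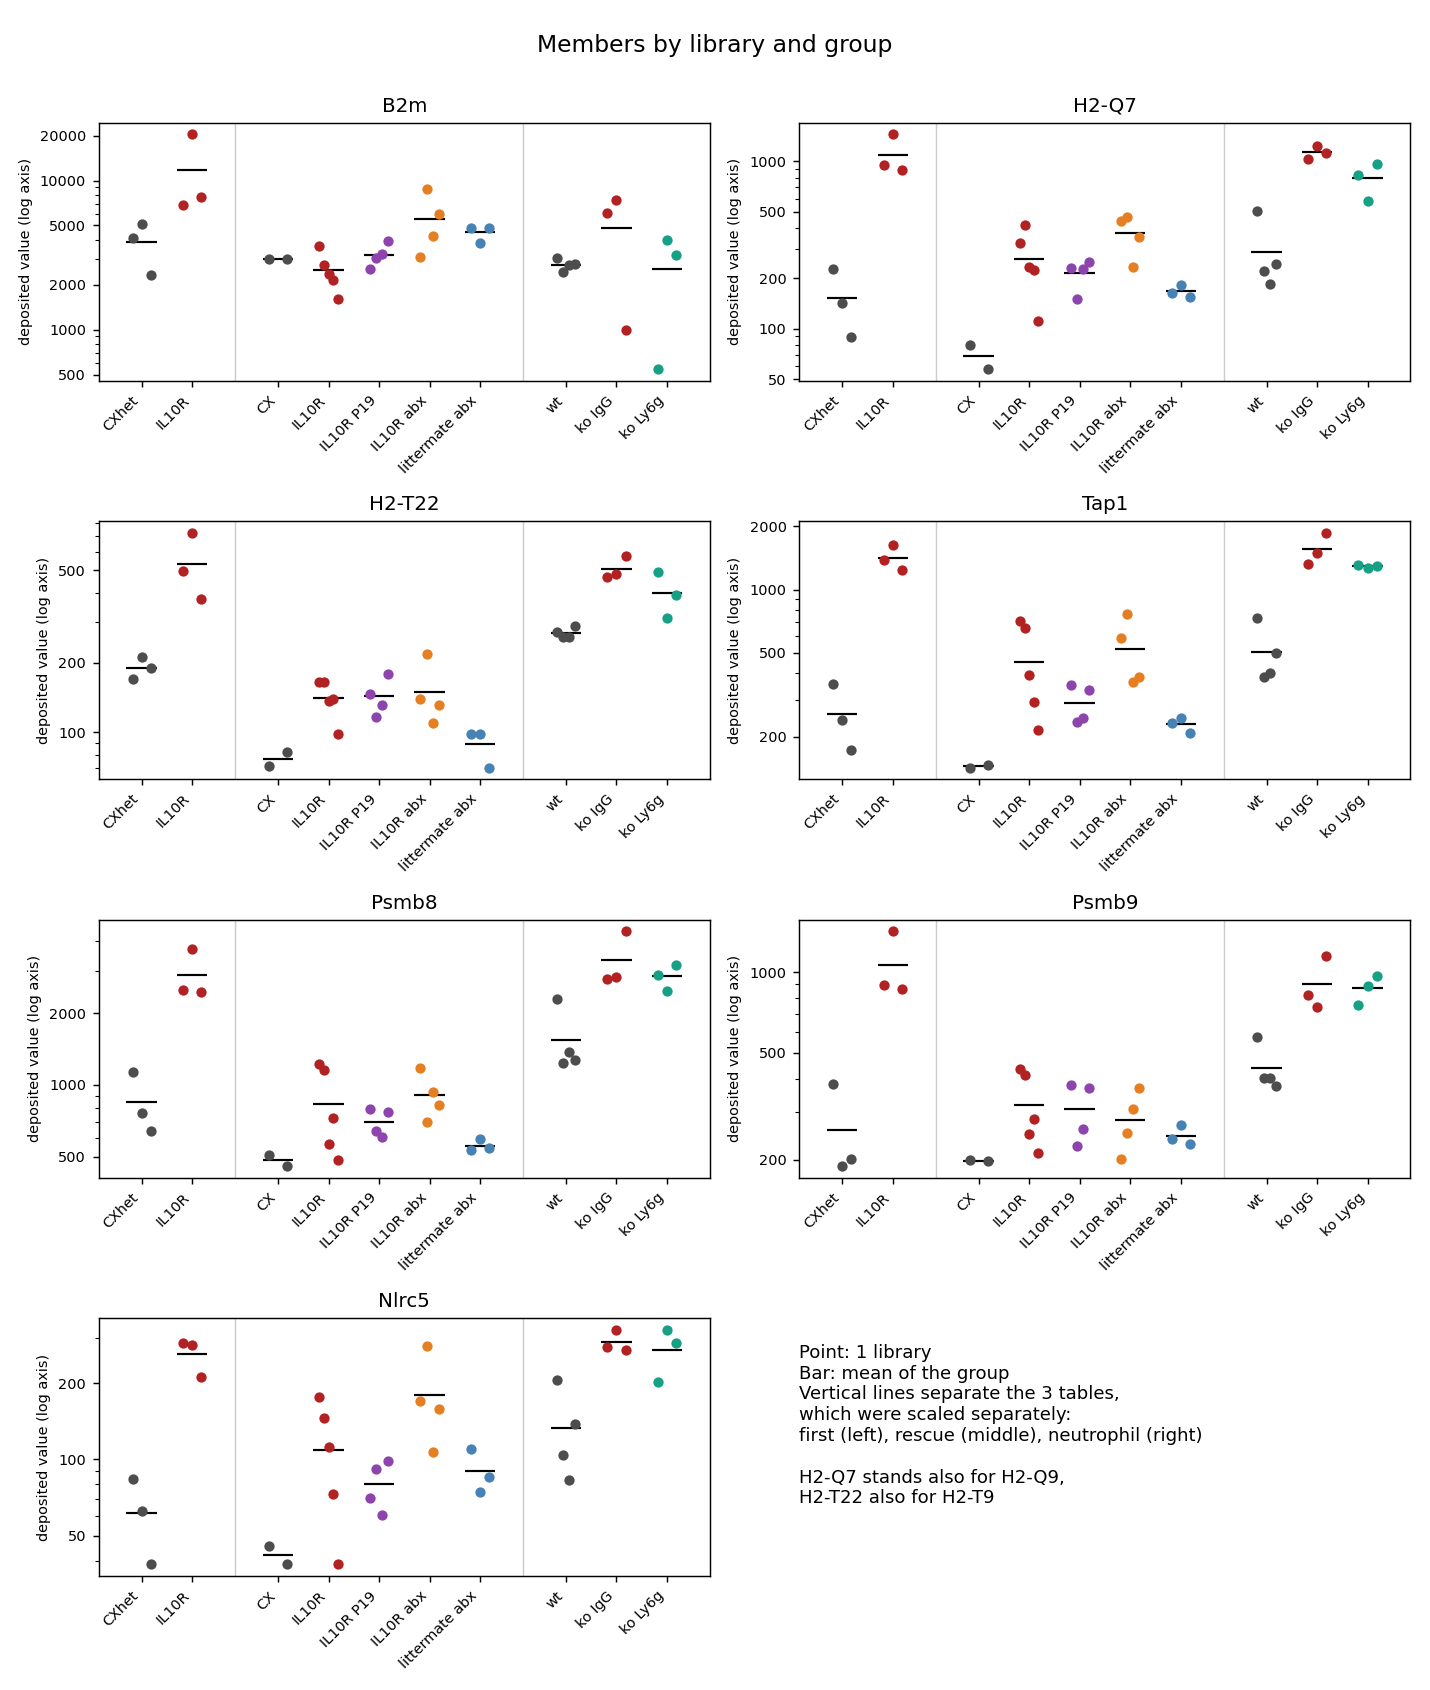
Deposited normalised read counts (log axis) of the 7 measurements, 1 panel each, with 1 point per library, grouped by title group and table, and a bar at each group's mean. In the first table every IL10R point lies above every CXhet point in all panels, and in the neutrophil table the B2m points of ko_igg 18 and ko_ly6g 5 lie far below the others.

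A wider list of 54 pathway genes outside the members was read in the same fit, of which 34 were tested in the first table: 12 rose and 1 fell. Over all genes tested 4.57% were called higher and 4.12% lower. The 1 fall is thus no sign of a change particular to the pathway. Among the other class I heavy chains H2-K1, a classical chain, rose by 1.41 on the log2 scale (adjusted p = 0.0128), while H2-D1, the other classical chain, had a log2 change of 0.95 and was not called (adjusted p = 0.0854). Cd1d1, which presents lipids, rose by 2.00 (adjusted p = 0.0451). Fcgrt, a class I-like receptor that binds immunoglobulin G, was the 1 gene of the list that fell, with a log2 change of -1.51 (adjusted p = 0.0264). In the peptide loading group 3 of 7 rose: Tapbpl, a peptide editor, by 1.60, Tap2 by 1.43 and Tapbp, the tapasin that tethers heavy chains to the transporter, by 1.20. All 3 tested genes of the immunoproteasome group rose, Psmb10 by 1.24 and the activator subunits Psme1 by 1.26 and Psme2b by 1.21. Their constitutive counterparts Psmb5, Psmb6 and Psmb7 had log2 changes of 0.27, 0.46 and 0.64, and none was called. Of 13 regulators 3 rose: Irf1 by 1.50, Jak2 by 1.08 and Stat2 by 0.86. Of the 13 calls in the list only that of Irf1 was kept without each single library. The calls of Cd1d1, Stat2 and H2-T23, another heavy chain called higher, were kept in 1 of 6 such fits (adjusted p up to 0.117, 0.124 and 0.157). Those of Fcgrt, Jak2 and Psme1 were kept in 3 of 6 and that of Tapbp in 4 of 6, while H2-K1, Tap2, Tapbpl, Psmb10 and Psme2b kept theirs in 5 of 6.

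**Figure D2:**
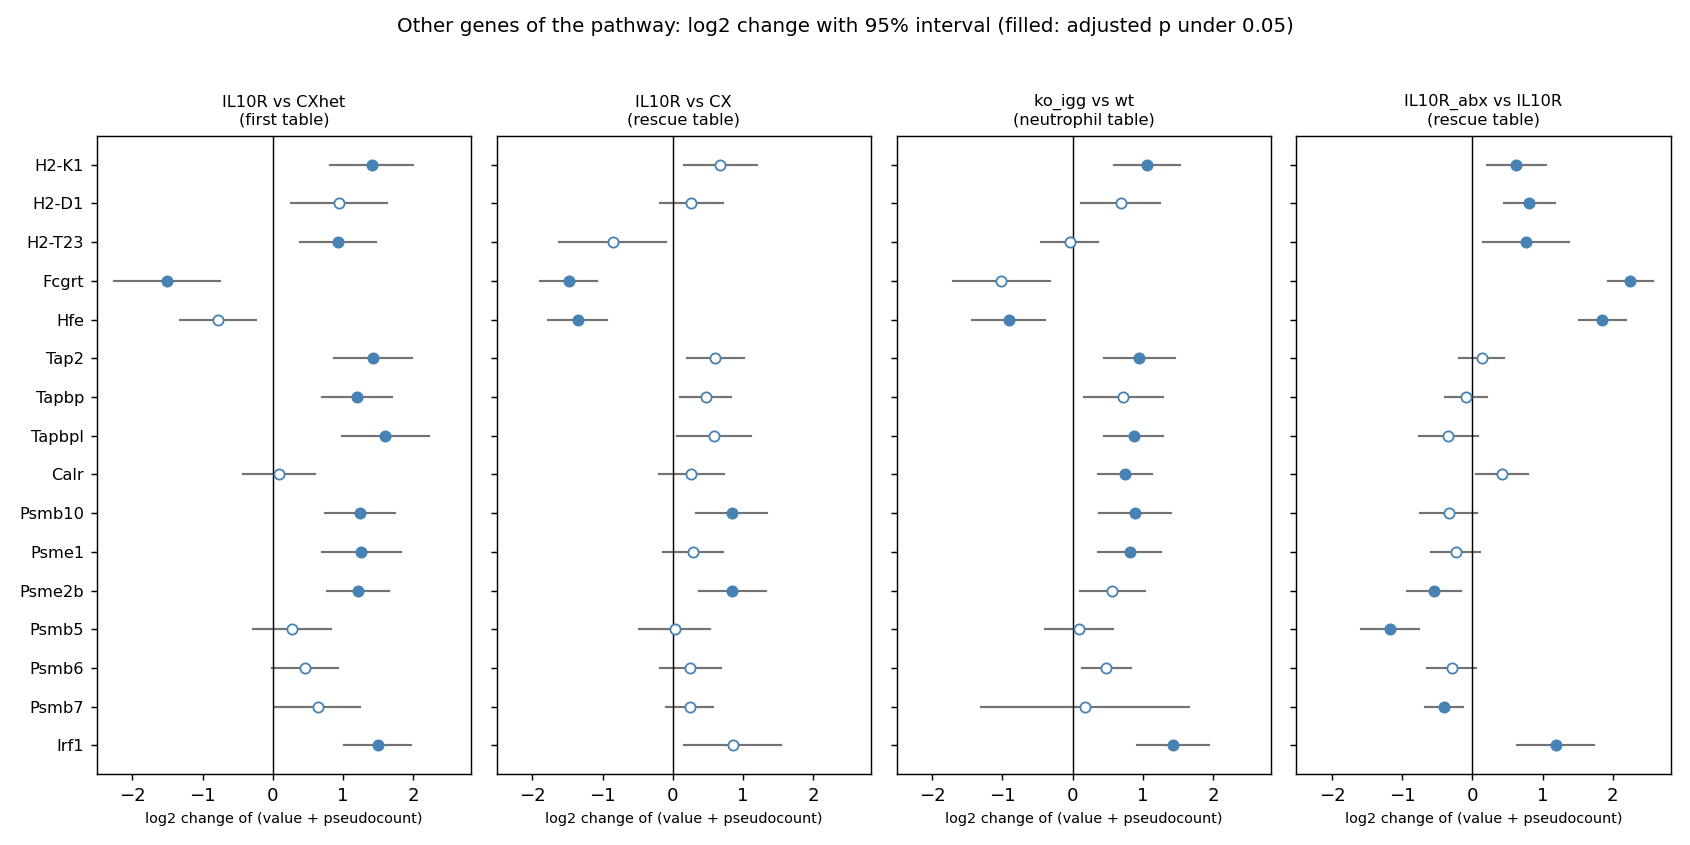
Log2 changes (points) with 95% intervals (lines) of 16 pathway genes outside the members in 4 comparisons, with filled points at an adjusted p under 0.05. In the first table Fcgrt lies lowest, at -1.51, Tapbpl highest, at 1.60, and Psmb10 and the activator subunits lie to the right of Psmb5, Psmb6 and Psmb7, whereas Fcgrt lies highest, at 2.25, for IL10R_abx against IL10R.

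Markers of neutrophils were 0.00457 to 0.00686% of summed values in CXhet and 0.0196 to 0.0278% in IL10R, with 5 of 12 listed, among them Ly6g, and Retnlg at 0 in CXhet. Epithelial markers (16 of 16 listed) were 0.71 to 1.43% in CXhet and 0.476 to 0.798% in IL10R, and macrophage markers 2.16 to 3.53% and 2.48 to 2.71%. The part of these cells in the class I values was not tested.

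In the rescue table, IL10R macrophages of untreated mice again had higher values than CX macrophages for most members, but the calls rested on few libraries. Of the 9 members, 5 were called higher (H2-Q7, H2-Q9, Tap1, H2-T22 and H2-T9, that is, 3 of the 7 measurements), against 3.87% of the 6612 genes tested, and the median of the 7 measurements was 0.85 against 0.01 over all genes. In all, 256 genes were called higher and 399 lower, so that 39.1% of calls were higher, and 53.6% were higher when each library was scaled to the same total. For 4 of the 7 measurements every IL10R library lay above both CX libraries, as for 18.8% of all genes tested. The 5 calls became 0 without CX 1 or without CX 3, 3 without IL10R 27, 32 or 67, and 7 without IL10R 68.

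H2-Q7 was 79.7 and 57.5 in CX 1 and 3 and 324, 415, 232, 224 and 112 in IL10R 27, 32, 61, 67 and 68, with a log2 change of 1.81 ± 0.36 (SE, n = 5 and 2, adjusted p = 0.00571). H2-T22 was 71.5 and 82.0 in CX and 165, 165, 136, 139.7 and 98.1 in IL10R, with a log2 change of 0.85 ± 0.24 (adjusted p = 0.0316). B2m was 2969 and 2999 in CX and 3649, 2731, 2380.5, 2153 and 1603 in IL10R. The CX values of B2m thus lay inside the IL10R range, and its log2 change was -0.31 ± 0.31 (95% interval -0.96 to 0.35, adjusted p = 0.580). Tap1 was 143 and 147 in CX and 706, 657, 391, 293 and 216 in IL10R, a log2 change of 1.49 ± 0.37 (adjusted p = 0.0180), and this call was lost when only the IL10R and CX libraries were fitted. Nlrc5 was 45.6 and 38.7 in CX and 176, 146, 112, 72.9 and 38.6 in IL10R, and the overlap came from IL10R 68 alone. Its log2 change was 1.18 ± 0.44 (adjusted p = 0.0938). Psmb8 was 511 and 457 in CX and 1225, 1159, 565, 729 and 486 in IL10R (log2 change 0.69, adjusted p = 0.131), and Psmb9 was 199 and 198 in CX and 436, 415, 248, 284 and 212 in IL10R (log2 change 0.63, adjusted p = 0.152). Neither subunit passed the test.

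The 5 IL10R libraries differed among themselves in much the same way for each member. IL10R 27 was highest for 6 of the 7 measurements and IL10R 32 for H2-Q7, while IL10R 68 was lowest for all 7. Tap1, Nlrc5 and B2m ranked the libraries alike. Tap1 ranged from 216 to 706 in IL10R, wider than its range of 234 to 350.4 in the 4 IL10R_P19 libraries. The labels give these libraries no feature that separates them.

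Of the 32 pathway genes outside the members that were tested in this table, 2 rose and 2 fell between CX and IL10R. Over all genes tested 3.87% were called higher and 6.03% lower, so these counts are no sign of a change particular to the pathway. Psme2b rose by 0.85 (adjusted p = 0.0239) and Psmb10 by 0.84 (adjusted p = 0.0324), whereas Psmb5, Psmb6 and Psmb7 had log2 changes of 0.03, 0.25 and 0.24, none called. Fcgrt had a log2 change of -1.48 (adjusted p = 5.28e-04) and Hfe, a class I-like protein of iron uptake, of -1.36 (adjusted p = 0.00122), and both fell. Without each of the 7 libraries in turn Fcgrt and Hfe kept their calls, whereas Psme2b was called in 4 of the 7 fits and Psmb10 in 2, with adjusted p up to 0.210 and 0.201. The classical chains H2-K1 (log2 change 0.68, adjusted p = 0.0876) and H2-D1 (0.27) and the transporter subunit Tap2 (0.61, adjusted p = 0.0530) did not pass. The macrophage markers summed to 2.07 to 2.08% in CX and 0.931 to 1.24% in IL10R, and the epithelial markers to 1.53 to 1.74% and 1.66 to 2.06%, and their part in these values was not tested.

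**Figure D3:**
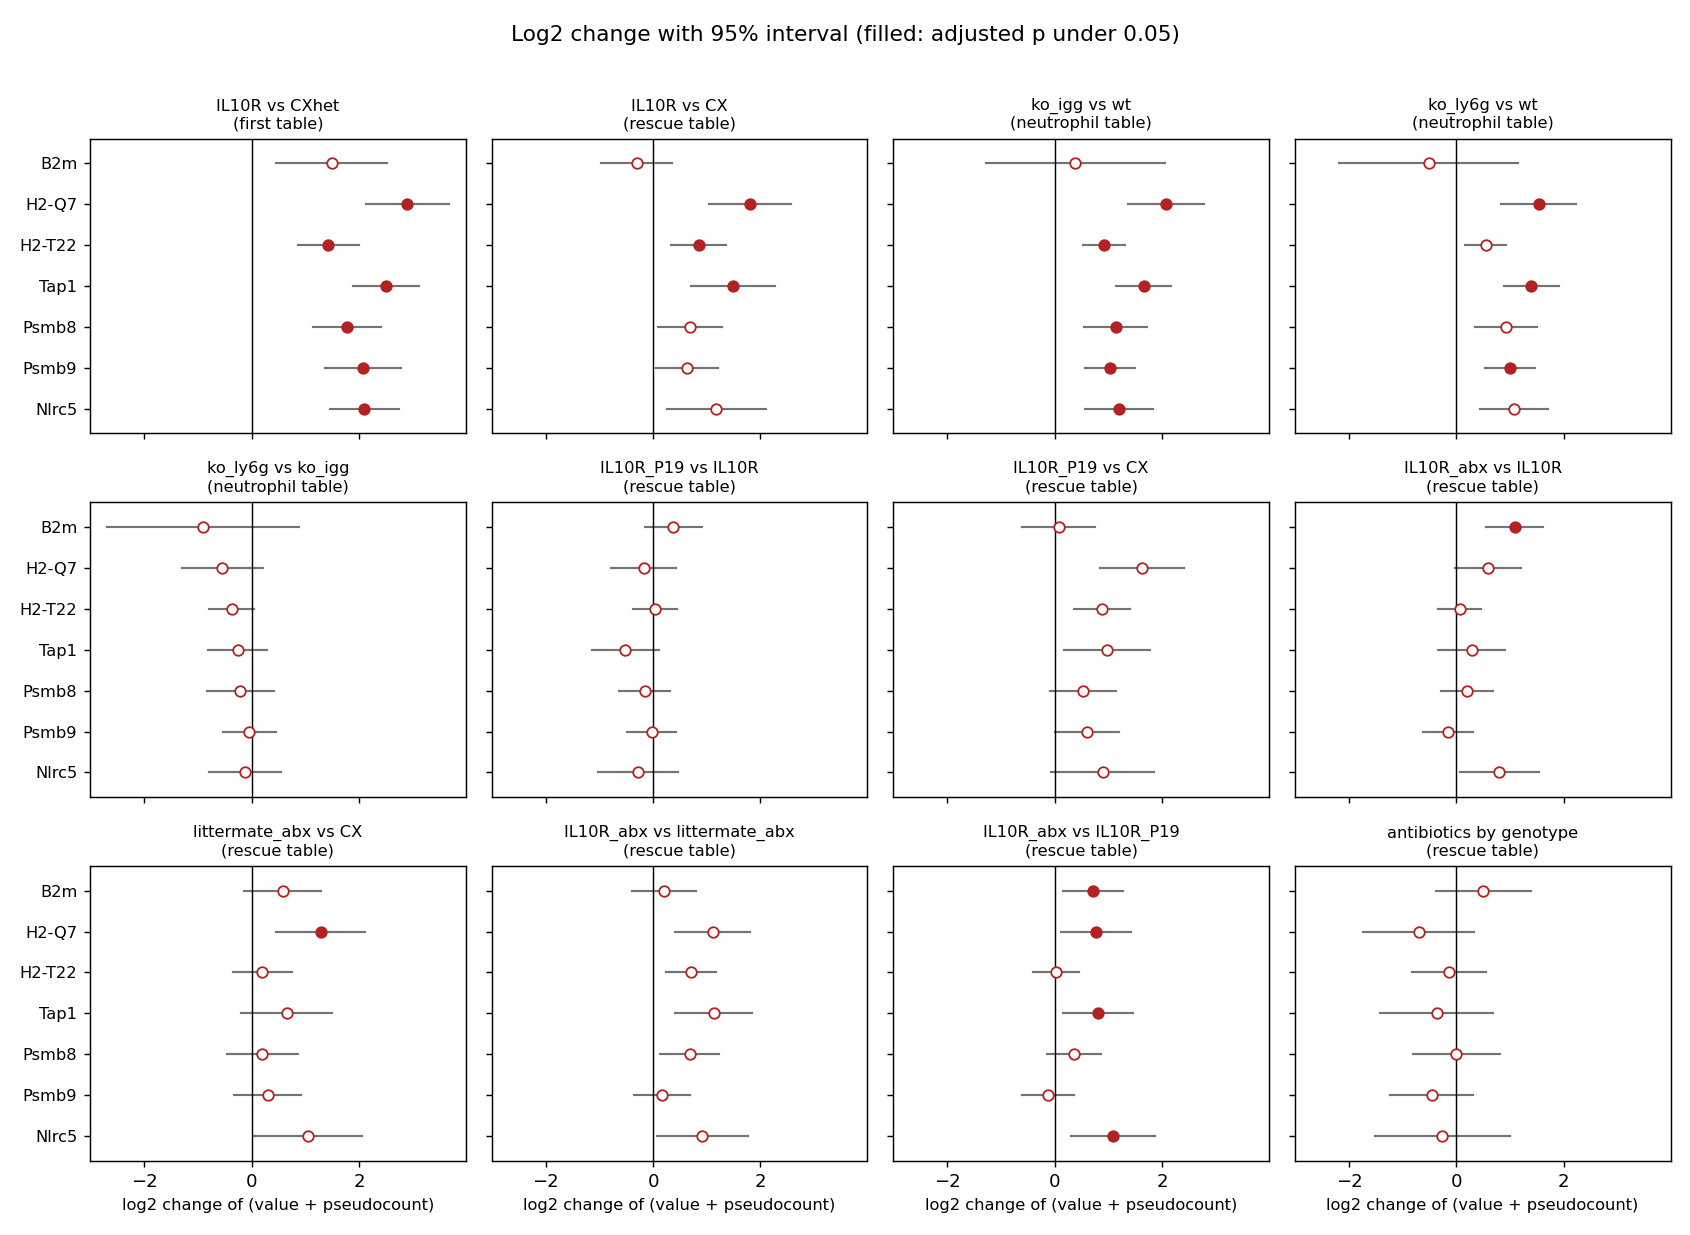
Log2 changes (points) with 95% intervals (lines) of the 7 measurements in each of the 12 comparisons, with filled points at an adjusted p under 0.05. Against CXhet, CX or wt, points other than B2m lie to the right of 0, while the intervals of all 7 cross 0 for IL10R_P19 against IL10R and for ko_ly6g against ko_igg.

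The comparison of IL10R_P19 with IL10R sets macrophages with P19 added to the title against those with the IL10R label alone. No member was called, against 2.43% of the 6612 genes tested in either direction (127 higher and 34 lower), and at an unadjusted p under 0.05 there were 0 members by limma, against 16.6% of all genes, and 1 by edgeR, which also called 0. Tap1 was 350.4, 234, 245 and 332 in IL10R_P19_100, IL10R_P19_105, IL10R_P19_106 and IL10R_P19_107, all inside the IL10R range of 216 to 706, with a log2 change of -0.52 ± 0.30 (95% interval -1.14 to 0.11, adjusted p = 0.414). H2-Q7 was 232, 150.3, 228 and 251, also inside the IL10R range of 112 to 415, with a log2 change of -0.18 (95% interval -0.79 to 0.43). Both intervals hold 0 as well as falls larger than the fitted ones. H2-T22 was 147, 117, 132 and 178 and Nlrc5 70.4, 91.3, 60.5 and 98.5 in the same 4 libraries. Psmb8 was 789.6, 640.4, 602 and 770.1, Psmb9 380.0, 225, 259.8 and 370.3, and B2m 2548, 3026, 3206 and 3912. Each of these groups overlapped IL10R, with log2 changes between -0.28 (Nlrc5) and 0.38 (B2m). Hfe (log2 change 1.05) and Fcgrt (0.92), the genes that fell between CX and IL10R, rose here, both at an adjusted p of 0.00668, and these comparisons share the IL10R libraries. No other of the 32 pathway genes tested was called.

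Against CX, IL10R_P19 had higher values for all 7 measurements, with no overlap for 6 of them, against 12.6% of all genes tested with every IL10R_P19 library above both CX libraries, but no member was called, against 0.0302% of genes called in either direction, that is, 2 genes. At an unadjusted p under 0.05 there were 6 of the 9 members (4 of the 7 measurements) by limma, against 5.04% of all genes, and 6 members by edgeR, which called 0. H2-Q7 had a log2 change of 1.63 ± 0.38 (95% interval 0.84 to 2.42, adjusted p = 0.335) and Tap1 of 0.98 ± 0.38. When only these 2 groups were fitted, 2 members, H2-Q7 and H2-Q9, were called.

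With antibiotics, B2m was higher in IL10R macrophages. It was 3088, 8755, 4251 and 5992 in IL10R_abx_160, IL10R_abx_161, IL10R_abx_495 and IL10R_abx_497, against 1603 to 3649 in untreated IL10R, so that the lowest treated library lay inside the untreated range. Its log2 change was 1.09 ± 0.25 (95% interval 0.56 to 1.61, adjusted p = 0.00114) and the call held without any single library. B2m was the 1 member called, however, while 30.6% of the 6612 genes tested were called higher, so 1 of 9 is no sign of a change particular to the members. In this comparison 2020 genes were called higher and 1803 lower, so that 52.8% of calls were higher, and 39.0% when each library was scaled to the same total, a scaling that moved the median of all genes from 0.03 to -0.17. Members called became 2 without IL10R 27, 4 without IL10R 32 and 4 without IL10R_abx_495.

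The other members overlapped between treated and untreated IL10R. Tap1 was 588, 762, 365 and 383 in IL10R_abx_160, IL10R_abx_161, IL10R_abx_495 and IL10R_abx_497 (log2 change 0.29, adjusted p = 0.429), and H2-Q7 was 442, 463, 234 and 355 (log2 change 0.59, adjusted p = 0.0914). Nlrc5 was 169.8, 280.2, 106.8 and 158 (log2 change 0.80, adjusted p = 0.0597). IL10R_abx_161 held the highest value of its group for 5 of the 7 measurements. Psmb8 was 1179.7, 699.6, 931 and 827, Psmb9 200.2, 250.1, 309 and 369, and H2-T22 139, 218, 110.2 and 131, with log2 changes of 0.20, -0.16 and 0.06, and H2-T22 was at -0.14 when libraries were scaled to the same total.

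Outside the members, 11 of the 32 pathway genes tested rose and 6 fell with antibiotics in IL10R, against 30.6% of all genes called higher and 27.3% called lower, so these counts are no sign of a change particular to the pathway. Of the 7 other heavy chains tested 6 rose, led by Fcgrt (log2 change 2.25, adjusted p = 2.25e-09), Hfe (1.85) and H2-M3, which presents formylated peptides (1.39), with H2-D1 (0.81) and H2-K1 (0.62) among them. Psmb5, a constitutive catalytic subunit, fell by 1.17 and Psmb7 by 0.40, and Psme2b fell by 0.55, while Psmb10 (-0.34) and Tap2 (0.13) were not called. Among regulators Rela rose by 1.31, Irf1 by 1.18 and Nfkb1 by 1.03, and Jak2 fell by 0.49. Of the 17 calls 11 were kept without each single library, while that of H2-K1 was kept in 8 of 9 such fits and that of Jak2 in 7 of 9 (adjusted p up to 0.0593 and 0.0863). None of the called pathway genes changed sign under the same-total scaling. The treated and untreated groups also differed in other markers. Epithelial markers (16 of 16 listed) summed to 0.303 to 0.505% in IL10R_abx and 1.66 to 2.06% in IL10R, and macrophage markers to 2.38 to 3.09% and 0.931 to 1.24%, and their part in these changes was not tested.

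Among mice given antibiotics, IL10R_abx had higher values than the littermates for all 7 measurements, though none passed the adjusted test. No member was called, against 0.0302% of genes in either direction (2 genes). At an unadjusted p under 0.05 there were 7 of the 9 members (5 of the 7 measurements) by limma, against 15.1% of all genes, and 7 members by edgeR, which called 0. For 4 of the 7 measurements every IL10R_abx library lay above every littermate library, as for 4.82% of all genes. Tap1 was 232, 247 and 209 in IL10R_littermate_abx_490, IL10R_littermate_abx_491 and IL10R_littermate_abx_496, below all 4 IL10R_abx libraries, with a log2 change of 1.13 ± 0.34 (95% interval 0.41 to 1.84, n = 4 and 3, adjusted p = 0.193). H2-Q7 was 163, 183 and 156 in the littermates, also below all IL10R_abx libraries, with a log2 change of 1.11 ± 0.33 (adjusted p = 0.193). H2-T22 was 98.1, 98.9 and 70.6, with a log2 change of 0.71 and no overlap. Psmb8 was 532, 595 and 545 and likewise did not overlap, whereas Psmb9 (239, 269.5 and 228), Nlrc5 (109, 74.5 and 85.3) and B2m (4813, 3825 and 4836) did.

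Littermates given antibiotics were also compared with untreated CX. H2-Q7 and H2-Q9 were the 2 members called (1 of the 7 measurements), with a log2 change of 1.29 ± 0.40 (adjusted p = 0.0178), against 16.5% of genes called higher. This call was lost without CX 3 (adjusted p = 0.149), and 5 members were called when only these groups were fitted. Of all calls 48.6% were higher, and 35.3% with each library scaled to the same total. Tap1 (log2 change 0.65), Nlrc5 (1.06) and B2m (0.58) did not pass. Irf1 rose by 2.01 and Rela by 1.65 in this comparison, and Psmb5 fell by 1.05, but the genotype of the littermates is not stated, and its effect and that of antibiotics cannot be told apart here. Epithelial markers summed to 0.278 to 0.426% in the littermates and 1.53 to 1.74% in CX, and macrophage markers to 2.80 to 3.07% and 2.07 to 2.08%, and their part in these changes was not tested.

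The test of whether the IL10R difference itself changed with antibiotics was IL10R_abx against littermates minus IL10R against CX. Its control groups differ, and the genotype of the littermates is not stated, so antibiotics and control group cannot be told apart. The test called no member, against 0.106% of genes in either direction (7 genes). No member was at an unadjusted p under 0.05 by limma, against 10.6% of all genes, or by edgeR, which called 0 members. The difference for Tap1 was -0.37 ± 0.50 on the log2 scale (95% interval -1.42 to 0.69) and for H2-Q7 -0.70 (95% interval -1.73 to 0.33), so the intervals span changes in either direction. For Hfe the difference was 1.42 and for Fcgrt 1.39, both at an adjusted p of 0.0426, a call kept without 2 of the 14 libraries in turn and lost without any of the other 12. It was also lost with each library scaled to the same total, at adjusted p of 0.0518 and 0.0666.

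Between the groups of the rescue studies, IL10R_abx was called higher than IL10R_P19 for 5 of the 9 members (4 of the 7 measurements), against 25.8% of genes called higher. The called members were Nlrc5 (log2 change 1.09, adjusted p = 0.0219), Tap1 (0.81, adjusted p = 0.0415), H2-Q7 and H2-Q9 (0.77, adjusted p = 0.0462) and B2m (0.71, adjusted p = 0.0340). Scaled to the same total, 1 member, Nlrc5, was called, and the higher share of all calls went from 53.5% to 39.0%. The count was 0 without IL10R_P19_106 or IL10R_abx_161, 1 without IL10R_P19_100 or IL10R_P19_105, and 2 without IL10R_abx_160 or IL10R_abx_497. Epithelial markers summed to 0.303 to 0.505% in IL10R_abx and 1.55 to 1.86% in IL10R_P19, and macrophage markers to 2.38 to 3.09% and 1.11 to 1.77%, and their part in these values was not tested.

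**Figure D4:**
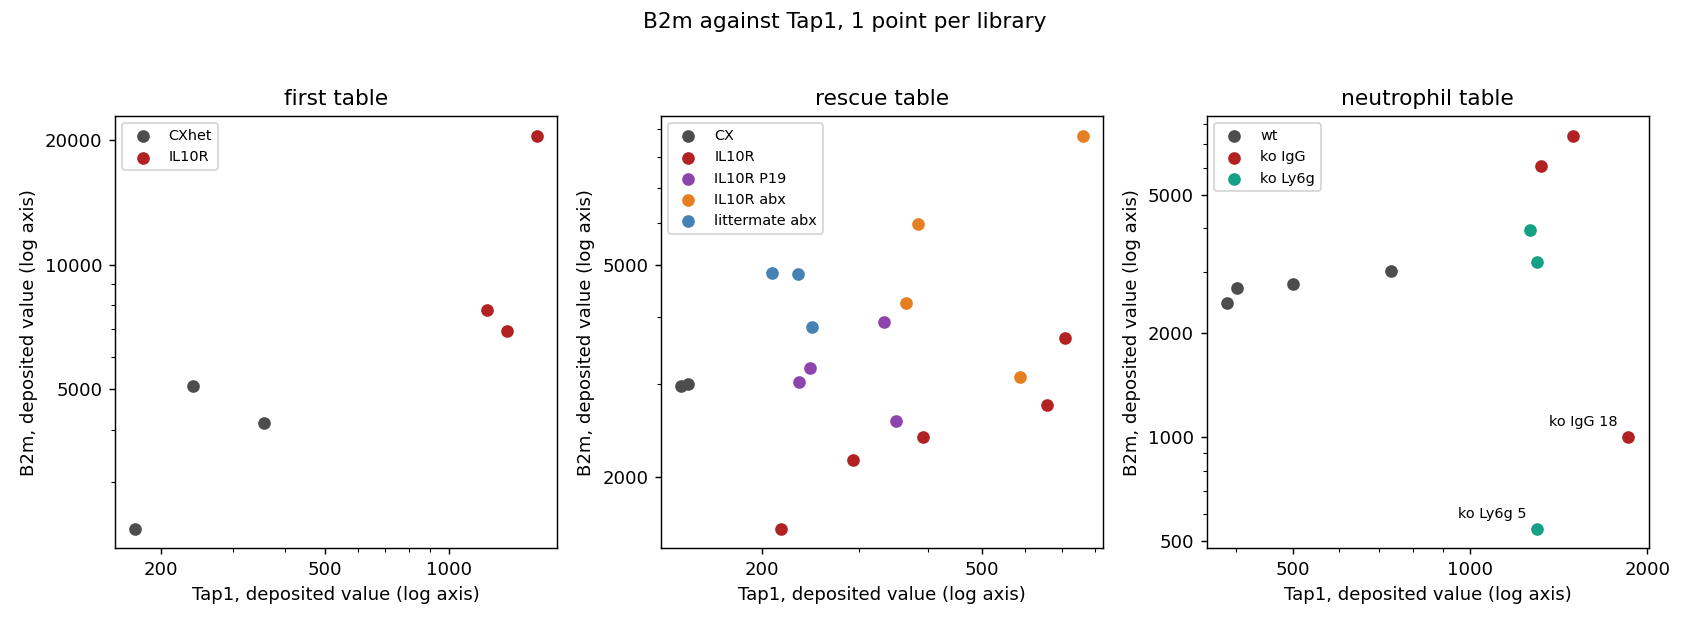
Deposited values of B2m (vertical, log axis) against Tap1 (horizontal, log axis), 1 point per library and 1 panel per table, coloured by title group. In the neutrophil table ko_igg 18 and ko_ly6g 5 have high Tap1 and the lowest B2m, and in the rescue table IL10R_abx_161 has the highest B2m and Tap1.

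In the bone marrow chimeras, ko_igg macrophages had higher class I values than wt macrophages. Of the 9 members, 8 were called higher (6 of the 7 measurements), against 5.73% of the 6594 genes tested (378 higher and 228 lower), and the median of the 7 measurements was 1.13 against 0.06 over all genes. For 6 of the 7 every ko_igg library lay above every wt library, as for 17.1% of all genes tested. Without both ko_igg 18 and ko_ly6g 5, 7 members and 502 genes were called in place of 8 and 606, and without ko_igg 14 alone 5 members. The 7 hold B2m, for whose low values ko_igg 18 and ko_ly6g 5 were left out, so that call is no support. Psmb8 and Nlrc5, which were among the 8, lost their calls without both libraries. On the 8 libraries whose reads could be recovered, without ko_igg 16 and wt 3, edgeR called 0 members and 56 genes and limma 0 members and 60 genes.

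H2-Q7 was 506, 221, 185 and 245 in wt 1 to 4 and 1029.7, 1241 and 1121 in ko_igg 14, 16 and 18, with a log2 change of 2.07 ± 0.32 (SE, n = 3 and 4, adjusted p = 0.00369). H2-T22 was 271, 257, 258 and 287 in wt and 468, 484 and 574 in ko_igg, with a log2 change of 0.92 ± 0.18 (adjusted p = 0.0106). Tap1 was 735, 386, 401 and 500.1 in wt and 1321, 1496 and 1858 in ko_igg, with a log2 change of 1.66 ± 0.23 (adjusted p = 0.00242). For these measurements the calls were kept without any single library, and wt 1 was the highest or next to highest wt library. Psmb9 was 571, 404, 404 and 377 in wt and 824, 744 and 1152 in ko_igg (log2 change 1.04, adjusted p = 0.0128), and Psmb8 was 2301, 1230.1, 1371 and 1266 in wt and 2789.9, 2839 and 4403 in ko_igg (log2 change 1.13, adjusted p = 0.0244). Nlrc5 was 205, 104, 83.2 and 137 in wt and 277, 324 and 269 in ko_igg (log2 change 1.20, adjusted p = 0.0282). The Psmb8 and Nlrc5 calls were kept only without wt 1 and lost without any other single library, with adjusted p up to 0.0784 and 0.115, and the Psmb9 call was lost without ko_igg 14 (adjusted p = 0.0506).

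B2m did not follow the other members in this table. It was 3009, 2438, 2701 and 2771 in wt, 6071, 7409 and 1002 in ko_igg 14, 16 and 18, and 544, 3971 and 3193 in ko_ly6g 5, 6 and 7. Its lowest values were those of ko_igg 18 and ko_ly6g 5, the libraries picked for low B2m. Its log2 change between ko_igg and wt was 0.39 ± 0.76 (95% interval -1.29 to 2.06, adjusted p = 0.776). Without ko_igg 18 it was 1.30 (adjusted p = 0.255), and without both libraries 1.30 at an adjusted p of 0.00981. Because both were left out for their low B2m, that last value is no support for a rise of B2m. In the same 2 libraries Tap1 was 1858 and 1302, at or above the level of their groups.

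Among the 33 pathway genes outside the members tested in the chimeras, 7 rose and 1 fell in ko_igg. Over all genes tested 5.73% were called higher and 3.46% lower, so the 1 fall is no sign of a change particular to the pathway. H2-K1 rose by 1.06 (adjusted p = 0.0127), Tap2 by 0.95, Tapbpl by 0.87, Calr, a chaperone of the loading complex, by 0.75, Psme1 by 0.81 and Psmb10 by 0.89. Irf1 rose by 1.43 (adjusted p = 0.00474). Hfe fell by 0.91 (adjusted p = 0.0355). Without each of the 7 libraries in turn, the call of Irf1 was kept in 7 fits, H2-K1 in 5, Tapbpl in 3, Psme1 and Hfe in 2, and Tap2, Calr and Psmb10 in 1, with adjusted p up to 0.131 (Hfe). Neutrophil markers (6 of 12 listed, among them Ly6g) summed to 0.00464 to 0.00914% in wt, 0.0096 to 0.0404% in ko_igg and 0.00676 to 0.0516% in ko_ly6g, and macrophage markers to 1.18 to 3.37%, 0.946 to 1.21% and 0.584 to 1.39%. Their part in the class I values was not tested.

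The comparison of ko_ly6g with ko_igg addresses, by the titles, the depletion of neutrophils in chimeras of the ko label. No member was called, against 0.0% of genes, and at an unadjusted p under 0.05 there were 127 genes (1.93%) and 0 members by limma and 44 genes and 0 members by edgeR, which called 0 genes. Tap1 was 1302, 1264 and 1298 in ko_ly6g 5, 6 and 7, each below the lowest ko_igg library, with a log2 change of -0.26 (95% interval -0.81 to 0.29). H2-Q7 was 826, 581 and 967, also below every ko_igg library, with a log2 change of -0.54 (95% interval -1.29 to 0.21). Of all genes tested 3.82% had every ko_ly6g library below every ko_igg library. H2-T22 was 489.8, 312 and 392 and overlapped ko_igg (log2 change -0.37, 95% interval -0.79 to 0.04). The intervals hold both no change and falls of these sizes.

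Against wt, ko_ly6g had 4 members called higher (3 of the 7 measurements), against 2.99% of genes: Tap1 (log2 change 1.40 ± 0.23, adjusted p = 0.0107), H2-Q7 and H2-Q9 (1.53 ± 0.32, adjusted p = 0.0256) and Psmb9 (1.00 ± 0.21, adjusted p = 0.0270). Psmb9 was 754, 889 and 970.3 in ko_ly6g 5, 6 and 7, above every wt library. Psmb8 was 2897, 2474 and 3170.2 and also above every wt library, but was not called (log2 change 0.93, adjusted p = 0.0766), and Nlrc5, at 202, 323 and 287, overlapped wt 1 (log2 change 1.08, adjusted p = 0.0616). The count was 1 without wt 2, 3 or 4 or ko_ly6g 7, 2 without ko_ly6g 5 and 2 without both libraries that stood apart, and Tap1 alone was kept without each single library. On the 8 libraries with recovered reads edgeR called 0 members and 56 genes and limma 0 members and 53 genes. These comparisons share libraries: ko_igg and ko_ly6g were both set against wt. Of the 33 pathway genes tested, Irf1 (1.25), Psmb10 (0.96), Calr (0.83) and Tapbpl (0.77) rose and Hfe fell by 0.98. The shares of all genes tested were 2.99% called higher and 1.35% called lower. None of the 5 calls of pathway genes was kept without each single library. Irf1 kept its call in 5 of 7 such fits, Tapbpl and Hfe in 2 and Psmb10 and Calr in 1, with adjusted p up to 0.159 (Psmb10).

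The genes whose values were most like the mean of the members were found from Pearson correlations across libraries, over 6, 18 and 10 libraries of the 3 tables, ranked by the lowest of the 3 among 5425 genes. They were Ifi47 (lowest r 0.90), Igtp (0.86), Gbp4 (0.86), Trpm2 (0.84) and Serpina3g (0.83). The libraries fall into the groups compared above and share their scaling, so these are descriptions with no test.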

How the data were processed

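Gene expression was read from 3 deposited tables of normalised signal. Per the labels' protocols, poly(A) RNA was captured on oligo(dT) beads and amplified by in vitro transcription. HISAT 0.1.6, HOMER, bcl2fastq and the build mm9 are named in the submitters' processing notes, without their roles. Annotation, strandedness and the handling of reads fitting several genes: not given in the sources used here. The deposited signal values were whole multiples (within 0.01 read) of 1 value per library for 100% of values, so they are reads divided by a factor, and the reads were recovered for 32 of 34 libraries (not for ko_igg 16 and wt 3). Rows without a gene name (15399 in the first table, 15605 in the rescue table) were left out.

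Because the values are not raw counts, limma 3.58.1 (R 4.3.3, trend and robust options) was fitted to log2(value + pseudocount), with pseudocounts of 1.31, 0.997 and 0.982 in the first, rescue and neutrophil tables, for all groups of a table together. Fold changes on this scale understate those of low genes. Genes with a mean in the lowest quartile were removed (means up to 53.2, 40.4 and 68.0), which left 6766 of 9022, 6612 of 8816 and 6594 of 8793 genes, and all 9 members passed in each table. P-values were adjusted over all tested genes (Benjamini-Hochberg), and an adjusted p under 0.05 is a call. The members and lists were chosen with earlier results of these data known, and 1 gene of the regulator list is not reported here. Named genes were the members, Il10ra, pathway genes called in a comparison with a few uncalled partners, and the 5 genes most like the members' mean. Alternatives were edgeR 4.0.16 (quasi-likelihood test, TMM) on recovered reads, a pseudocount of 10, no filter, scaling to the same total, only the groups compared, a replicate block, near copies summed and each library left out. After seeing the data, fits without ko_igg 18 and ko_ly6g 5 and on the libraries of the count test were added. The limma fit was tested on simulated counts for 1 comparison per table, with the same dispersion for all genes and no library set apart. The edgeR fits and the interaction were not tested in this way. Sequences are RefSeq's for GRCm38.p6.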

Additional observations from a re-analysis of the deposited data

Results flagged for a closer look

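Among 64 sets of library values checked, each of 1 gene in 1 group, in groups of 4 or 5 libraries, 28 of them member measurements, 6 had a highest or lowest library far from the rest by Dixon's criterion, which chance gives in about 1 in 20. In wt 1 of the neutrophil table, Psmb8 was 2301 with 1230.1, 1371 and 1266 in the other 3 libraries, and Psmb9 was 571 with 404, 404 and 377. In the same library H2-D1 was 8498, Psmb7 65.5 and Il10ra 827. It had the fewest recovered reads of its table (1028567), and values flagged in the same library are not independent of each other. In the rescue table Psmb5 was 219 in IL10R_P19_100 and 143 to 146 in the other 3 libraries of its group.

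For 2 pathway genes the interaction test (IL10R_abx against littermates minus IL10R against CX) gave a call. Its control groups differ, and the genotype of the littermates is not stated, so antibiotics and control group cannot be told apart. Hfe had a difference of 1.42 and Fcgrt of 1.39 on the log2 scale, both at an adjusted p of 0.0426 (limma). Both calls were lost in 12 of the 14 fits that left out a library, with adjusted p up to 0.223, and with same-total scaling, which called 0 genes.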

How the results depend on the processing

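Of 433 alternatives computed for called member changes, 325 kept the call and its direction, 108 lost the call and 0 turned its direction. When only the groups compared were fitted, genes called were 1093 for IL10R against CX, 6 for IL10R_P19 against CX (2 members), 16 for the interaction and 96 for ko_ly6g against wt (1 member), and 5 members were called for the littermates against CX. With edgeR, genes called were 287 for IL10R_P19 against IL10R, 24 for the interaction, and 56 for both ko_igg and ko_ly6g against wt (0 members in each). With limma on the same 8 libraries they were 60 and 53 (0 members in each), so the loss was seen with both methods. Whether it came with the number of libraries or with which ones were left out was not tested. Scaling to the same total gave 0 genes for the interaction and 1 member for IL10R_abx against IL10R_P19. Without both ko_igg 18 and ko_ly6g 5, ko_ly6g against wt had 125 genes and 2 members.

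Directions turned for uncalled changes only. H2-T22 and H2-T9 were at -0.14 with same-total scaling for IL10R_abx against IL10R and against IL10R_P19, and at -0.011 with edgeR for the latter. B2m was at -0.15 for ko_igg against wt with limma on the libraries of the count test. Without both libraries, Nlrc5 was at 0.023 and Psmb9 at 0.25 for ko_ly6g against ko_igg, and B2m at 0.39 for ko_ly6g against wt. The cause was not tested.

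Leaving out each library in turn gave these ranges of genes called and members called. IL10R against CXhet had 200 (without CXhet 2) to 588 genes and 8 to 8 members, and IL10R against CX 20 (without CX 1) to 741 genes and 0 to 7 members. IL10R_P19 had 17 (without IL10R_P19_107) to 377 (without IL10R_P19_100) genes and 0 members against IL10R, and 0 (without either CX library) to 2 genes and 0 members against CX. IL10R_abx had 3616 to 3839 genes and 1 to 4 members against IL10R, 2 to 385 (without IL10R_abx_497) genes and 0 members against the littermates, and 2752 to 3213 genes and 0 to 5 members against IL10R_P19. The littermates against CX had 1325 (without CX 1) to 2058 genes and 0 to 2 members, and the interaction 0 to 73 (without IL10R 68) genes and 0 members. In the chimeras ko_igg against wt had 203 (without ko_igg 14) to 1039 (without wt 1) genes and 5 to 8 members, ko_ly6g against ko_igg 0 genes and 0 members, and ko_ly6g against wt 103 (without wt 3) to 489 (without wt 1) genes and 1 to 6 members. Uncalled changes that crossed 0 ran, for IL10R_P19 against IL10R, from -0.45 to 0.020 (H2-Q7, H2-Q9), -0.091 to 0.12 (H2-T22, H2-T9), -0.33 to 0.0038 (Psmb8) and -0.16 to 0.12 (Psmb9), and against CX from -0.035 to 0.17 (B2m). They ran for IL10R_abx from -0.13 to 0.19 against IL10R (H2-T22, H2-T9), -0.060 to 0.44 against the littermates (B2m), and -0.17 to 0.16 (H2-T22, H2-T9) and -0.27 to 0.021 (Psmb9) against IL10R_P19, and for the interaction from -0.17 to 0.16 (Psmb8). They ran for B2m from -0.14 to 1.30 (ko_igg against wt), -1.82 to 0.00069 (ko_ly6g against ko_igg) and -1.04 to 0.39 (ko_ly6g against wt), and for ko_ly6g against ko_igg from -0.26 to 0.075 (Nlrc5), -0.32 to 0.0091 (Psmb8) and -0.17 to 0.15 (Psmb9).

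With the replicate number as a block, IL10R against CXhet had 808 genes and 9 members called in place of 588 and 8, and B2m passed (adjusted p = 0.0225). The same-numbered libraries had correlations of deviations of -0.058, 0.151 and 0.354. IL10R 3 correlated best with CXhet 3, and IL10R 2 with CXhet 2, though nearly as well with CXhet 1 (0.149). IL10R 1 correlated best with CXhet 3 (0.120). So few correlations cannot decide whether the same-numbered libraries are pairs. Depth limits the IL10R_abx group most, at 747046 to 1646890 reads.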
